A study of Rattus norvegicus with 36 samples.

Results

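Dorsal striatum of rats that had received any cocaine was compared with dorsal striatum of rats that had received saline only. The 6 cocaine pools were the 3 pools of the saline–cocaine (Sal–Coc) group and the 3 pools of the cocaine–cocaine (Coc–Coc) group, and the 3 control pools were those of the saline–saline (Sal–Sal) group, which together make up all 9 pools of the series. Pools were chosen by their labelled treatment alone. The question was what both cocaine schedules had in common, which neither schedule on its own comparison with saline tests.

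All animals were male Sprague-Dawley rats aged 8 weeks. By the labels, Sal–Sal rats received 15 injections of saline, Sal–Coc rats received 13 of saline and 3 of cocaine, and Coc–Coc rats received 15 of cocaine. The 13 and 3 injections of the Sal–Coc group add up to more than the 15 of the other groups. The paper describes the same injection schedule for all groups, so the labelled 13 is at odds with it. Tissue was taken a day after treatment ended, and each pool joined tissue from 2 rats. The samples were labelled dorsal striatum. The labelled extraction protocol names both the nucleus accumbens and the caudate putamen, and the paper describes the pools as coming from either region. Each pool was present as 4 technical replicates, and their counts were summed, so that 36 samples gave 9 pools (24 cocaine and 12 saline samples).

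Cocaine blocks the reuptake of dopamine, which then stays longer at its receptors on the projection neurons of the striatum. These neurons carry either D1-type or D2-type dopamine receptors, and the dorsal striatum is known for its part in movement and habit. Both cocaine groups received cocaine at the end of the protocol, and the Coc–Coc rats had also received it before.

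The deposited counts list Ensembl gene IDs without names, and the gene table at hand matched 0 of the 32402 IDs. Genes are therefore described by ID or by their rank, and the tissue could not be checked against marker genes. In total 23352 genes had at least 1 count and 15884 passed the filter on low counts. Depth was similar in cocaine pools (29870775 to 39493867 counts) and saline pools (32220421 to 35291782 counts). Pool 5 of the Coc–Coc group stood apart from the other pools, with 624 genes that departed 2-fold or more from the other pools' median, against 129 to 263 in the other 5 cocaine pools and 136 to 183 in the saline pools. Counts of called genes are therefore also given without it where they are first reported.

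By edgeR's quasi-likelihood test, 0 of 15884 genes (0%) differed between cocaine and saline pools after adjustment at 0.05, the smallest adjusted value being 0.155. Before adjustment, 1288 genes had a p-value under 0.05, of which 530 were higher (3.34% of genes tested) and 758 were lower (4.77%) in the cocaine pools. An even spread of p-values would give 794, although genes are not independent of one another. The number called depended on the test. DESeq2 called 44 of 16083 genes (0.274%), of which 9 were higher (0.056%) and 35 lower (0.218%). The edgeR likelihood ratio test called 37 genes (0.233%), 33 of them among the 44 of DESeq2. Limma with voom and sample quality weights called 7 genes (0.0441%), all 7 among the 44. Without pool 5 of the Coc–Coc group, edgeR's quasi-likelihood test called 3 genes, all 3 among the 44, and DESeq2 called 123, including 38 of the 44. Without pool 6 of the Coc–Coc group the quasi-likelihood test called 7 genes and DESeq2 called 157. These p-values measure the spread between pools.

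The 2 leading genes of each direction were ENSRNOG00000014448 and ENSRNOG00000023546, both lower in the cocaine pools, and ENSRNOG00000042717 and ENSRNOG00000019582, both higher. They were taken from the genes whose 6 cocaine pools lay on one side of the 3 saline pools, so that separation is part of their choice. Because the tissue was measured in bulk, fewer cells of a type and less RNA per cell cannot be told apart for the lower genes, nor more cells and more RNA per cell for the higher ones.

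The level of ENSRNOG00000014448 was 64.3, 61.4 and 57.3 CPM (counts scaled for library size, the usual unit of level) in pools 5, 6 and 7 of Sal–Sal. It was 46.4, 46.4 and 43.7 CPM in Sal–Coc and 30.5, 38.4 and 38.7 CPM in Coc–Coc. The 3 groups did not overlap and were ordered Sal–Sal, Sal–Coc, Coc–Coc. The cocaine pools were lower than the saline pools by a log2 difference of −0.59 ± 0.08 (SE; 95% interval −0.77 to −0.42; adjusted p = 0.155 in edgeR and 1.5e-06 in DESeq2). Coc–Coc minus Sal–Coc, the schedule difference, was −0.34 ± 0.09 on the log2 scale (adjusted p = 0.692, unadjusted p = 0.00429, edgeR).

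The level of ENSRNOG00000023546 was 4.22, 8.04 and 5.28 CPM in Sal–Sal, against 1.89, 2.14 and 1.67 CPM in Sal–Coc and 2.36, 1.93 and 1.43 CPM in Coc–Coc. The lowest saline pool was above the highest cocaine pool, and the 2 cocaine groups overlapped. The log2 difference of cocaine from saline was −1.61 ± 0.22 (SE; adjusted p = 0.155 in edgeR and 3.24e-07 in DESeq2). Between the schedules it was 0.01, with a 95% interval of −0.59 to 0.61, so a difference of up to about 1.5-fold between a single day and repeated cocaine was not resolved.

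The level of ENSRNOG00000042717 was 8.28, 9.65 and 11.1 CPM in Sal–Sal, 14.7, 15.8 and 18.0 CPM in Sal–Coc, and 16.4, 23.7 and 22.0 CPM in Coc–Coc. All cocaine pools were above all saline pools, while pool 5 of Coc–Coc lay within the range of Sal–Coc. The log2 difference of cocaine from saline was 0.92 ± 0.14 (SE; adjusted p = 0.185 in edgeR and 3e-06 in DESeq2). Coc–Coc minus Sal–Coc was 0.35 on the log2 scale (95% interval 0.01 to 0.69), which did not pass adjustment (adjusted p = 0.692, edgeR).

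The level of ENSRNOG00000019582 was 14.8, 15.2 and 12.9 CPM in Sal–Sal, 21.4, 24.3 and 20.6 CPM in Sal–Coc, and 23.9, 19.3 and 21.4 CPM in Coc–Coc. The 2 cocaine groups overlapped and both lay above saline. The log2 difference of cocaine from saline was 0.61 ± 0.09 (SE; adjusted p = 0.185 in edgeR and 3.45e-05 in DESeq2), and that between the schedules was −0.04 (95% interval −0.27 to 0.20). These 4 genes were among the 6 that DESeq2 called in each of the 9 fits that left out a pool. They were chosen on this same contrast, so this describes them.

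**Figure D1:**
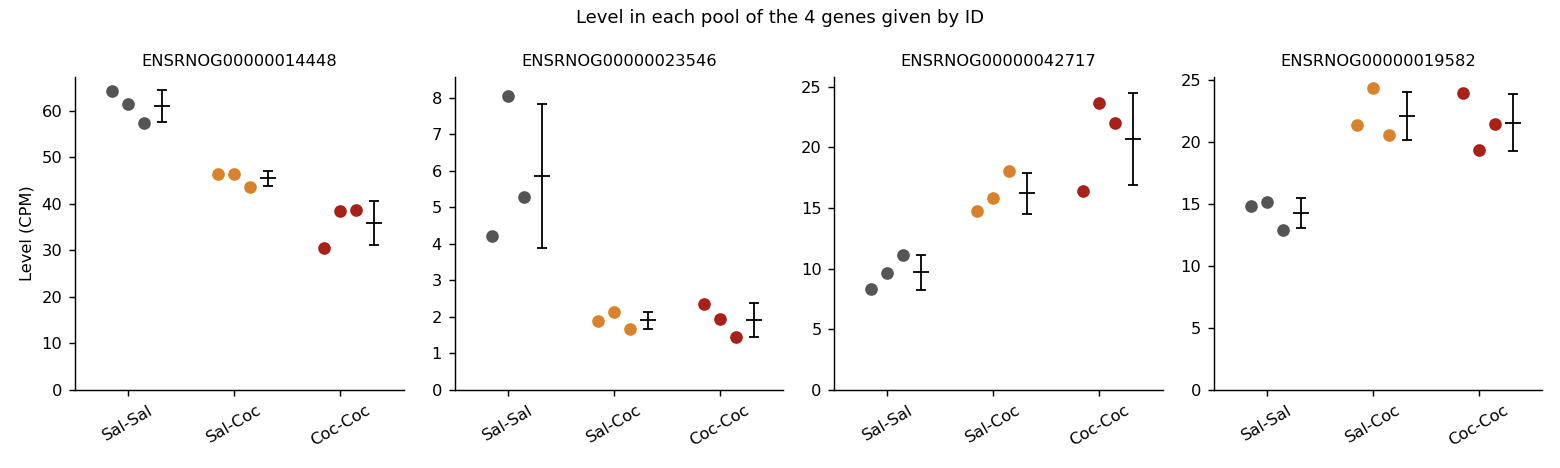
Level of the 4 genes in each pool (vertical axis, CPM, from 0), with pools 5, 6 and 7 of each group as points from left to right and the group mean ± SD (n = 3 pools) as black bars. In ENSRNOG00000014448 the Sal–Sal pools lie between 57.3 and 64.3 CPM and the 6 cocaine pools between 30.5 and 46.4 CPM.

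The 25 genes with the smallest p-values among those whose cocaine and saline pools did not overlap were mostly lower after cocaine. Of the 25, 21 were lower and 4 were higher, with adjusted p-values from 0.155 to 0.323 in edgeR. The lower genes had log2 differences of −3.59 to −0.24 (median −0.70) and the higher genes 0.56 to 1.16 (median 0.77). These 25 were chosen on this contrast, so their counts and sizes are a description. The differences were at least 2-fold in 10 genes, 9 of which were at a mean level under 10 CPM, and under 1.5-fold in 8 genes. DESeq2 called 22 of the 25.

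Large and small differences stood beside each other among the 25. The gene ranked 8 had the largest difference, at 1.25, 5.39 and 0.766 CPM in Sal–Sal and 0.0896 to 0.268 CPM in the cocaine pools (log2 −3.59 ± 0.58, SE). Without pool 6 of Sal–Sal, its highest, the difference was −2.30 ± 0.34 on the log2 scale (SE). Its highest saline pool was 7.03 times its lowest, the only one of the 25 genes in which that ratio passed 2, and its lowest cocaine pool was close to the floor of 3 counts (0.076 to 0.1 CPM across pools). The gene ranked 25 had the smallest difference, at 40.6, 41.6 and 41.0 CPM in Sal–Sal, 35.7, 36.2 and 34.3 CPM in Sal–Coc, and 34.0, 34.7 and 33.4 CPM in Coc–Coc (log2 −0.24 ± 0.05, SE). Its pools of each group lay within a narrow range.

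Among the more abundant of the 25, the gene ranked 18 was at 186, 211 and 185 CPM in Sal–Sal, 155, 141 and 148 CPM in Sal–Coc, and 113, 153 and 120 CPM in Coc–Coc (log2 −0.49 ± 0.09, SE). Every cocaine pool was below every saline pool, and Coc–Coc reached from below to within the range of Sal–Coc. The gene ranked 17 was higher after cocaine, at 111, 110.04 and 125 CPM in Sal–Sal, 174, 203 and 173 CPM in Sal–Coc, and 149, 138 and 186 CPM in Coc–Coc (log2 0.56 ± 0.10, SE). The gene ranked 16 combined a high level with a large difference, at 52.6, 44.2 and 30.2 CPM in Sal–Sal, 15.5, 16.5 and 11.3 CPM in Sal–Coc, and 8.85, 23.2 and 8.78 CPM in Coc–Coc (log2 −1.60 ± 0.29, SE). It was the only one of the 10 genes that differed at least 2-fold with a mean level of 10 CPM or more, and its saline and cocaine pools were both widely spread.

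**Figure D2:**
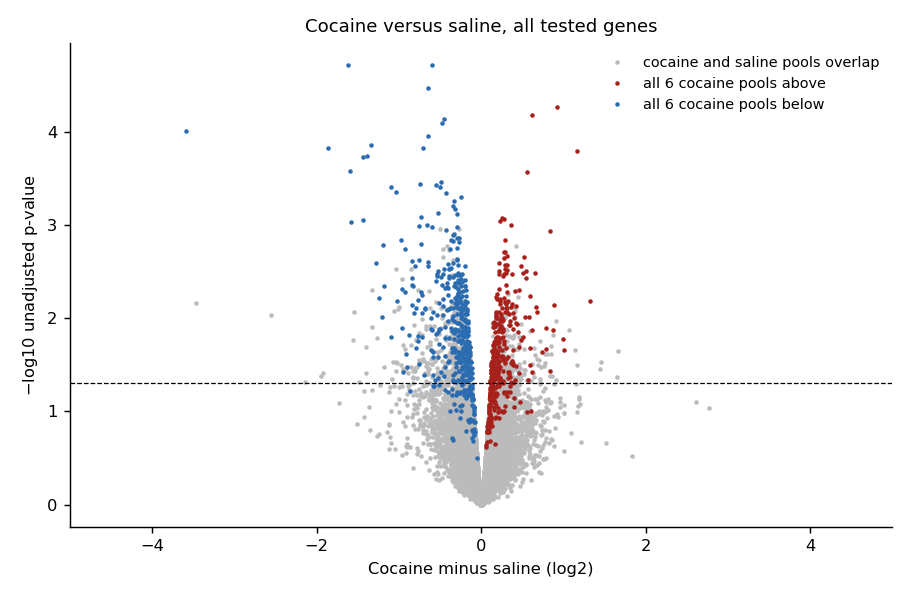
Log2 difference of the cocaine pools from the saline pools (horizontal axis) against −log10 of the unadjusted p-value of edgeR's quasi-likelihood test (vertical axis) for 15884 genes, with genes whose 6 cocaine pools were all above (red, 352) or all below (blue, 426) the 3 saline pools. The dashed line marks an unadjusted p-value of 0.05, which 530 higher and 758 lower genes passed.

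Across all tested genes, the 6 cocaine pools lay wholly above the 3 saline pools in 352 genes (2.22%) and wholly below in 426 genes (2.68%). Of these 1288 genes with p under 0.05 before adjustment, 597 (46.4%) had pools that did not overlap, 246 higher and 351 lower, and 691 had pools that overlapped. Differences were small in most of these genes. The median absolute log2 difference was 0.23 among the 530 higher and 0.30 among the 758 lower genes, and 53 higher (10%) and 147 lower genes (19.4%) differed at least 1.5-fold. A difference of at least 2-fold was seen in 10 higher and 40 lower genes.

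Lower genes outnumbered higher ones among the 1288, whereas slightly more of all tested genes were above saline than below. Of the 1288 genes, 41.1% were higher after cocaine, whereas 54.6% of all tested genes had a difference above 0 and the median difference was 0.01 on the log2 scale. The excess of lower genes was found in each of 4 classes of mean level. In the class under 1 CPM it went with the direction of all genes, of which 45.3% were above 0 (median −0.04), whereas 53.9%, 55.3% and 62.3% were above 0 in the classes of rising level. The share of higher genes among those with p under 0.05 before adjustment was 29.5% of 132 genes under 1 CPM, 37.6% of 258 genes at 1 to 10 CPM, 43.1% of 745 genes at 10 to 100 CPM and 47.7% of 153 genes at 100 CPM or more. The share of genes whose pools did not overlap was 3.36%, 3.55%, 5.64% and 6.36% in the same classes. Whether these shares differ between classes was not tested. With RLE and upper-quartile factors 53.2% and 52.7% of all genes were above 0, and lower genes outnumbered higher ones in each class, by 84 to 61 and by 87 to 59 at 100 CPM or more.

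**Figure D3:**
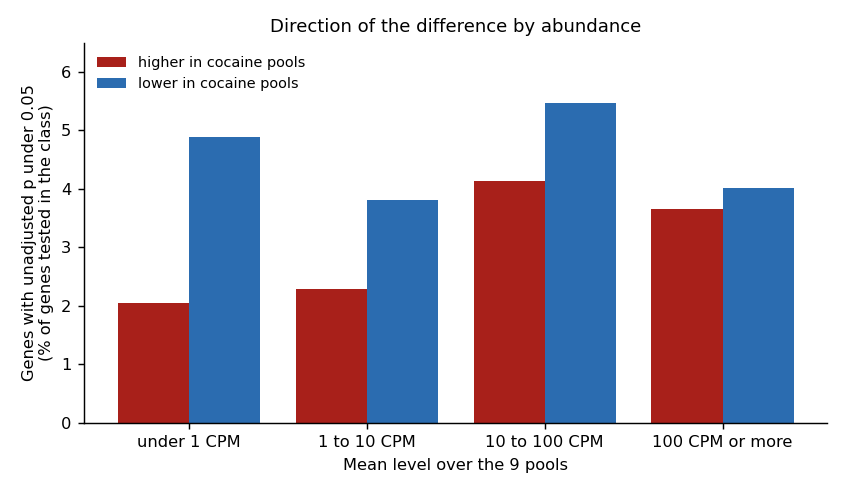
Share of tested genes with p under 0.05 before adjustment (vertical axis, percent from 0) that were higher (red) or lower (blue) in the cocaine pools, by mean level over the 9 pools (horizontal axis). In the class under 1 CPM 39 genes were higher and 93 lower, and at 100 CPM or more 73 were higher and 80 lower.

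The data also set a limit to the differences that most genes could have. The standard error of the cocaine difference had a median of 0.11 on the log2 scale, and the 95% interval reached 1.18-fold to either side in the median gene. The whole interval lay within 1.2-fold of no difference for 5403 genes (34.0%), within 1.5-fold for 11938 (75.2%) and within 2-fold for 14520 (91.4%). Precision followed abundance, with a median half-width of 1.64-fold under 1 CPM, 1.29-fold at 1 to 10 CPM, 1.13-fold at 10 to 100 CPM and 1.12-fold at 100 CPM or more. A 2-fold difference was thus outside the interval of most genes, and small differences were not resolved in scarce ones.

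To ask whether a gene differed under each schedule, the p-values of Sal–Coc and of Coc–Coc, each against Sal–Sal, were compared and the larger was taken where both differences had the same sign. With edgeR's quasi-likelihood test, 0 of 15884 (0%) passed after adjustment, the smallest adjusted value being 1. The larger p-value was under 0.05 without adjustment for 309 genes, 116 higher (0.73%) and 193 lower (1.22%). By the same rule DESeq2 and the edgeR likelihood ratio test each called 7 genes, and limma with voom called 0. Without pool 5 of Coc–Coc the quasi-likelihood test called 0 and DESeq2 4. DESeq2 called 20 without pool 6 of Coc–Coc, 0 without pool 6 of Sal–Sal, and 1 to 5 without any of the other 6 pools. Both comparisons share the Sal–Sal pools, so a saline pool that departs from the others moves both in the same direction.

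The values of the 25 leading genes under either schedule are given side by side. The absolute log2 difference from Sal–Sal ran from 0.21 to 3.26 (median 0.74) in Sal–Coc and from 0.27 to 3.92 (median 0.77) in Coc–Coc. The difference was farther from 0 in Coc–Coc for 11 genes and in Sal–Coc for 14. The direct comparison of the schedules takes its difference from the 6 cocaine pools and its error from all 9. In it, 4 of the 25 (16%) had an unadjusted p-value under 0.05 in edgeR, against 6.93% of all genes. The 25 were chosen with the same estimate of spread per gene, so this share is not independent of their choice. Of these 4, 2 were farther from saline in Coc–Coc and 2 in Sal–Coc, and the smallest adjusted value was 0.692. The largest was in the gene ranked 14, at 3.61, 2.53 and 2.44 CPM in Sal–Sal, 0.548, 1.097 and 0.614 CPM in Sal–Coc, and 1.23, 1.96 and 1.49 CPM in Coc–Coc, where Coc–Coc was higher than Sal–Coc by 1.03 ± 0.31 on the log2 scale (SE; adjusted p = 0.692, edgeR). Its Coc–Coc pools lay between the other groups. The 95% interval of the schedule difference stayed within 2-fold for 21 of the 25 genes.

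**Figure D4:**
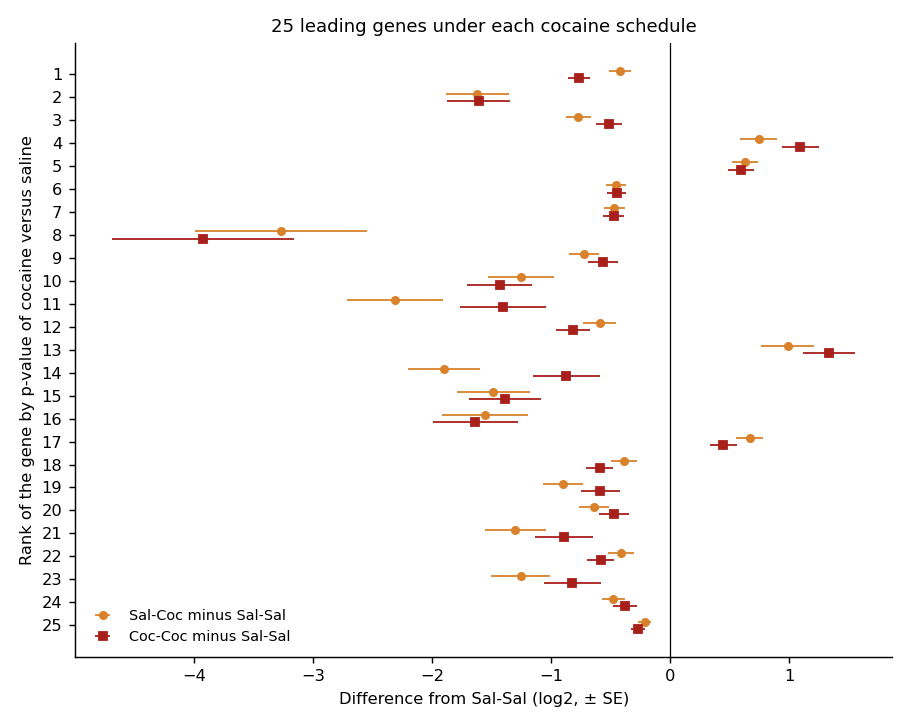
Log2 difference from Sal–Sal (horizontal axis, ± SE) of Sal–Coc (circles) and Coc–Coc (squares) for the 25 genes, ordered by p-value of cocaine versus saline (vertical axis, rank 1 to 25). In 21 genes both points lie below 0 and in 4 genes both lie above, and both share the same 3 Sal–Sal pools. The 25 were chosen for cocaine pools that did not overlap the saline pools, which by itself places both points on the same side of 0.

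Over all genes, the direct comparison of Coc–Coc with Sal–Coc by edgeR's quasi-likelihood test called 0 genes (smallest adjusted value 0.334), and 1100 (6.93%) had a p-value under 0.05 before adjustment. DESeq2 called 2 genes, the edgeR likelihood ratio test 1 and limma with voom 0. The DESeq2 count rose to 6, 41 and 118 without pools 5, 6 and 7 of Coc–Coc and to 6 without pool 6 of Sal–Coc, and was 1 without pool 5 or 7 of Sal–Sal or of Sal–Coc, while the quasi-likelihood test called 0 in each of the 9 fits. Among the 1288 genes with p under 0.05 for cocaine before adjustment, the schedules differed at that level in 142 (11%), and among the 778 genes whose cocaine and saline pools did not overlap in 32 (4.11%). Both comparisons use the same estimate of spread per gene, and cocaine pools that lie together are part of what keeps them from overlapping the saline pools, so these shares are not independent of the choice of genes. The median absolute schedule difference was 0.11 on the log2 scale in the 1288 genes and 0.11 in all genes.

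Some of the genes that DESeq2 called over both schedules jointly were called under neither alone. Of the 44 genes that DESeq2 called for cocaine, 11 were called in both schedules, 16 in Sal–Coc only, 9 in Coc–Coc only, and 8 in neither. Of these 8, 2 were higher and 6 lower, and their lowest unadjusted p-value for the schedule difference was 0.395 in DESeq2. A gene much farther from saline under 1 schedule would tend to be called there, so that value is partly set by their choice. The 44 were called on this same contrast, so what follows describes them. The pools of 41 did not overlap (2.22% of all genes higher and 2.68% lower had such pools), 8 differed at least 2-fold, and the median absolute log2 difference was 0.58 (0.21 to 3.63). DESeq2 called 0 of the 44 between the schedules, where 7 (15.9%) had a p-value under 0.05 before adjustment, against 4.78% of all genes. The share of 15.9% is not independent of how the 44 were chosen, since both tests use the same estimate of spread per gene. All 44 had the same direction in edgeR, where their adjusted p-values ran from 0.155 to 0.494.

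A separation of cocaine from saline pools beyond the spread within treatment was not detected over the whole transcriptome. The levels were scaled for library size, so a change common to all genes could not be seen. The median absolute log2 difference over genes was 0.121 ± 0.016 (SD) for the 3 pairs of saline pools and 0.153 ± 0.035 (SD) for the 18 pairs of a saline and a cocaine pool. It was 0.165 ± 0.046 (SD) for the 6 pairs of cocaine pools of the same schedule and 0.164 ± 0.044 (SD) for the 9 pairs across schedules. Pairs across treatment minus pairs within treatment gave −0.0039, with a one-sided p of 0.44 in an exact permutation test over the 84 groupings of pools (smallest possible p 0.0119). Without pool 5 of Coc–Coc it was 0.0073, with p = 0.161 over 56 groupings in the exact permutation test (smallest possible p 0.0179). Without that pool the pairs of a saline and a cocaine pool were at 0.140 ± 0.017 (SD, 15 pairs). Cocaine pairs were then at 0.138 ± 0.019 (SD, 4 pairs) within a schedule and 0.135 ± 0.010 (SD, 6 pairs) across schedules.

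**Figure D5:**
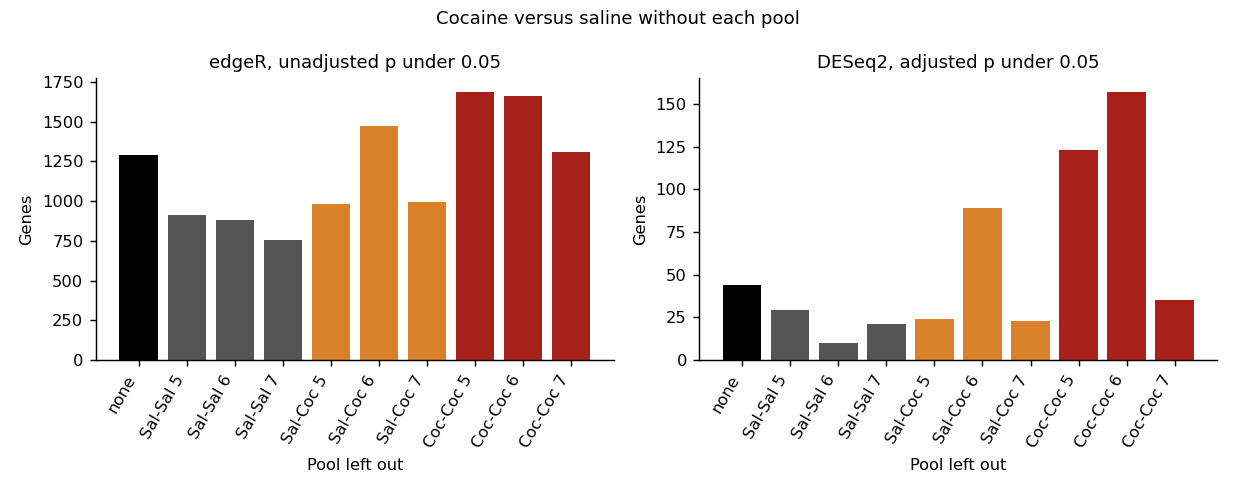
Number of genes for cocaine versus saline (vertical axes, from 0) with all pools (black) or without the pool named on the horizontal axis, as genes with p under 0.05 before adjustment by edgeR's quasi-likelihood test (left) and genes called by DESeq2 (right). The edgeR count lies between 758 without pool 7 of Sal–Sal and 1688 without pool 5 of Coc–Coc, against 1288 with all pools.

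The counts moved with single pools. Leaving out pool 7 of Sal–Sal lowered the number of genes with p under 0.05 before adjustment to 758 of 16045, below an even spread. DESeq2 called 10 genes without pool 6 of Sal–Sal, all 10 among the 44, and 21 without pool 7 of Sal–Sal, 18 of them among the 44. It called 24 and 23 genes without pools 5 and 7 of Sal–Coc, 29 without pool 5 of Sal–Sal, of which 19 were among the 44, and 89 without pool 6 of Sal–Coc. In all 9 of these fits the lower genes outnumbered the higher ones among those with p under 0.05 before adjustment, with 32.4% to 46.3% higher in DESeq2 and 34.2% to 45.8% higher in edgeR.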

How the data were processed

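RNA from 9 pools was sequenced as stranded poly(A) libraries with single reads. The authors trimmed and filtered the reads, aligned them to the Ensembl rat genome with STAR and removed reads that mapped more than once, so genes with near-identical copies are undercounted. The submitters' processing notes also name bcl2fastq 2.18.0.12 and HTSeq 0.5.3. The strand setting of the counting is not given in the sources used here, so overlapping and antisense genes are uncertain. The deposited values are raw counts per Ensembl gene, with no normalisation.

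The 4 technical replicates were close to sampling noise of each other (chi-square per degree of freedom 1.005 to 1.028) and were summed. In R 4.3.3, genes were filtered with filterByExpr (minimum count 10, minimum total count 15) and scaled by TMM factors (0.962 to 1.04). A mean per group was fitted with edgeR 4.0.16 (glmQLFit, glmQLFTest, two-sided), with 6 residual and 4.1 prior degrees of freedom and a biological coefficient of variation of 13.1%. Cocaine versus saline was the average of the Sal–Coc and Coc–Coc means minus the Sal–Sal mean, and the schedule difference was Coc–Coc minus Sal–Coc. P-values were adjusted by Benjamini-Hochberg over all genes tested, with a threshold of 0.05. DESeq2 1.42.0 (~ group, genes with a count), edgeR's likelihood ratio test and limma 3.58.1 (voom, quality weights) were alternatives, as were other scaling and filters, 1 mean for all cocaine pools, the pool number as a block, only technical replicate a, and the removal of each pool in turn. DESeq2 with the block, with 1 mean for all cocaine pools, and without each pool was added after seeing the data. Distances between pools were computed on log2 CPM (prior count 2). The floor of 3 counts and its CPM cover counting error only.

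The genes described were those past the threshold, filled up to 25 with the smallest p-values among genes whose pools did not overlap. IDs were given for the 2 leading genes of each direction. The rule also named gene lists and Lrp1b, Vps13a and L3mbtl1, which could not be looked up because IDs were not paired with names. The comparison, lists and tests were chosen with earlier results of these data known.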

Additional observations from a re-analysis of the deposited data

Results flagged for a closer look

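Pool 5 of Coc–Coc stood apart from the other 5 cocaine pools in 2 measures. On the first principal component of log2 CPM (29.0% of the variance) its gap to the nearest cocaine pool was 0.871 of the range of the 6 pools, above Dixon's 95% critical value for 6 samples. It also had 624 genes that departed 2-fold or more from the other pools' median, with a gap of 0.729 of the range. Such a test marks about 1 in 20 groups by chance for a measure set in advance. The first component is itself set by these pools, so that rate does not hold for it. The 2 measures come from the same levels and are not independent. The total count (0.410) and the levels of the 4 genes given by ID (0.193 to 0.496) stayed below the critical value. The cause of the departure was not tested.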

How the results depend on the processing

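For cocaine versus saline, the count of 0 genes in edgeR's quasi-likelihood test became 44 with DESeq2, 37 with the likelihood ratio test, 7 with limma and voom and 8 without the filter on low counts. It stayed 0 with RLE and upper-quartile factors, with at least 10 counts in every pool, with technical replicate a alone and with 1 mean for all cocaine pools. Leaving out a pool gave 0 to 7 genes, and 758 to 1688 with an unadjusted p-value under 0.05. Limma and voom gave 2306. DESeq2 gave 51 with 1 mean for all cocaine pools and 10 to 157 without a pool (651 to 1545 unadjusted). Under both schedules, DESeq2 and the likelihood ratio test called 7 genes each. Leaving out a pool gave 0 in edgeR (214 to 415 unadjusted) and 0 to 20 in DESeq2 (188 to 366 unadjusted), and limma and voom gave 549 unadjusted. The schedule difference was called for 2 genes by DESeq2, 1 by the likelihood ratio test, 0 without a pool in edgeR and 1 to 118 in DESeq2. Genes without overlap numbered 910 to 1607 without a pool, against 778, since fewer pools leave fewer that can overlap, and 630 with technical replicate a alone. The 4 genes given by ID kept their direction in all 30 alternatives, while their adjusted p-values ran from 1.3e-12 to 0.742. They were chosen for pools that did not overlap, so leaving out a pool could not turn their direction. The kept direction is therefore a description. Apart from the rise in genes without overlap when a pool was left out, the cause of these changes was not tested.

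With the pool number as a block, edgeR called 0 genes (1142 unadjusted) and DESeq2 43 (854 unadjusted), 7 under both schedules and 4 between schedules. Deviations from the group means correlated between pools of the same number at −0.193 to 0.156, and 1 of 9 exceeded 0.1. No general pairing by number was seen, but with 3 pools per group these correlations cannot exclude one. Depth limits genes under 1 CPM most, and the number of saline pools (3) limits each comparison with saline.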
